A study of Mus musculus with 9 samples.

Results

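Cytochrome P450 enzymes are membrane-bound monooxygenases that hold a heme iron and insert 1 atom of molecular oxygen into a substrate. The members described here are the probe sets whose single gene symbol in the platform annotation starts with Cyp and a digit, which gave 73 of the 18194 genes that the array names in this way. They are read by 98 of its 45101 probe sets and fall into 16 families and 35 subfamilies, and 19 of the genes have more than 1 probe set. A further 4 probe sets carry several P450 symbols and are not counted among the members.

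Lung RNA was measured in 9 female C57BL/6 mice aged 14 weeks, 1 array per mouse. The AdV-IL4 mice carried a replication-deficient adenovirus encoding mouse IL-4, the cytokine of type 2 immune responses, and the AdV-IL4d2 mice carried one encoding mouse IL-4d2, a splice variant of it. The AdV-NULL mice carried the same kind of virus without a cytokine, so all 3 groups of 3 mice were infected, and the lungs were taken 14 days after the virus was given into the trachea. The promoter that drives the cytokine and the cells that took up the virus are not given in the sources used here. The labels do not say whether the mice were infected together, so the p-values measure the spread between these mice.

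P450 enzymes of families 1 to 3 and Cyp4b1 oxidise foreign compounds, those of the Cyp4a, Cyp4f and Cyp4v subfamilies hydroxylate fatty acids and eicosanoids, and the remaining families act mainly on sterols, steroids, bile acids, retinoids and vitamin D. In the lung the enzymes of foreign compounds are known above all from club cells, the secretory cells of the airway lining. Microsomal P450 enzymes receive electrons from the reductase Por and from cytochrome b5.

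Il4 checked the labels: its signal was 379, 301 and 335 in AdV-IL4 mice and 1172, 944 and 499 in AdV-IL4d2 mice, against 43.1, 15.8 and 71.6 in AdV-NULL mice. The array medians lay between 156 and 171. The tissue label was met by lung markers, since Sftpc, the alveolar surfactant protein, averaged 35811 in AdV-IL4 mice and 30785 in AdV-IL4d2 mice, against 31282 in AdV-NULL mice. All 6 markers of skeletal and heart muscle fell with IL-4, with limits given below. In them 1 array stood apart, with a summed signal of 65077 in AdV-NULL mouse 1 against 14667 and 9429.8 in the other AdV-NULL mice. AdV-IL4 mouse 2 had the lowest sum, 1204. Results are therefore also given without both of these arrays.

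The start regions of 4 P450 genes that changed with IL-4 are shown here because they hold the sequence features the results return to: the Ah receptor core of Cyp1a1 and Cyp2b10, and a run of bases shared by Cyp4f15 and Cyp4f18, which moved in opposite directions. Each runs 5′ to 3′ on the gene's strand from 250 bases before to 50 bases after the annotated start, taken from RefSeq on build GRCm38.p6. Cyp1a1 lies at chr9:57697363-57697662 on the plus strand, Cyp2b10 at chr7:25897408-25897707 on the plus strand, Cyp4f15 at chr17:32685409-32685708 on the plus strand and Cyp4f18 at chr8:72009577-72009876 on the minus strand. Capitals mark GCGTG, the core of the Ah receptor site, or CACGC on the other strand, TATAAA, the TATA box, and ATTGG, the inverted CCAAT box.
Cyp1a1: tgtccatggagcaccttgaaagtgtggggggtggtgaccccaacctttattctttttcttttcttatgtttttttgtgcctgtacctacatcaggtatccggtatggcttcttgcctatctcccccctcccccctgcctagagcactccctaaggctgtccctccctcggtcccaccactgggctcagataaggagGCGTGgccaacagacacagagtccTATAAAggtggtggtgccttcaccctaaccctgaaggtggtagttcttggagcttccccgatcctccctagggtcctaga
Cyp2b10: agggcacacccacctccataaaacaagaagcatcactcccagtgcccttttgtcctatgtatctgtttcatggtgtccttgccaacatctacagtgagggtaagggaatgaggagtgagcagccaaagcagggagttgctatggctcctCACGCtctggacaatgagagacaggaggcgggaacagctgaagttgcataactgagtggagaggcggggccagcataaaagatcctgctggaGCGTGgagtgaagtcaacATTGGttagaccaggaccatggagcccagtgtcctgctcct
Cyp4f15: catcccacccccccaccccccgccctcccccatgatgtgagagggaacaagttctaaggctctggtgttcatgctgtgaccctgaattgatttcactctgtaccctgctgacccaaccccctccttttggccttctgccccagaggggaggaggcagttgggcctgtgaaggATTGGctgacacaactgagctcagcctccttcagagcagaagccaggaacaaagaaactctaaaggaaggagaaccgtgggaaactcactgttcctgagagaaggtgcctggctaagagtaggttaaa
Cyp4f18: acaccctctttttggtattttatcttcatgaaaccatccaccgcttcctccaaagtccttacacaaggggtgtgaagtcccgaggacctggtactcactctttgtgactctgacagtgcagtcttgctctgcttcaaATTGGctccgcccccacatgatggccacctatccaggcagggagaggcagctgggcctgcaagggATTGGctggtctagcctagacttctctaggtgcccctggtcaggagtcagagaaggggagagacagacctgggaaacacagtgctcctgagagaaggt

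Only 30 of the 98 probe sets, from 23 genes, were bright enough to test. The test needed a signal over the array median on 3 or more arrays. Of these, 25 were above it on all 9 arrays. Of the other 68 probe sets, 58 lay under the array median on all 9 arrays, and 10 exceeded it on 1 or 2 arrays, such as Cyp4a12a with 248 on AdV-IL4 mouse 1. A gene that passes this filter only through the group in which it is high had to differ, so counts over the tested probe sets describe them and no more.

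With IL-4, 8 P450 genes changed against the control virus, Cyp1a1 and Cyp4f18 upward and Cyp4b1, Cyp2b10, Cyp2s1, Cyp4f15, Cyp3a13 and Cyp2e1 downward. By probe set limma called 10 of the 30, at a threshold of 0.05 on the adjusted p. Of them 2 were higher and 8 lower, where 10.7% of all 23824 tested probe sets were called, 5.6% higher and 5.08% lower. All 3 probe sets of Cyp2b10 are among the 8 that fell. For 14 of the 30 the AdV-IL4 and AdV-NULL signals were fully apart, against 29.2% of all tested probe sets. At an unadjusted p under 0.05 the count was 16, against 25.9% of all. The median log2 difference was −0.12 over the P450 probe sets and −0.00 over all tested probe sets.

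With IL-4d2, limma called 0 of the 30 probe sets, where 1.32% of all tested probe sets were called. At an unadjusted p under 0.05 the count was 4, against 14.4% of all. For 3 of the 30 the signals of the groups were fully apart, against 21.3% of all. The median log2 difference was −0.03. Both comparisons share the 3 AdV-NULL arrays, so their values for each gene are set side by side below.

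**Figure D1:**
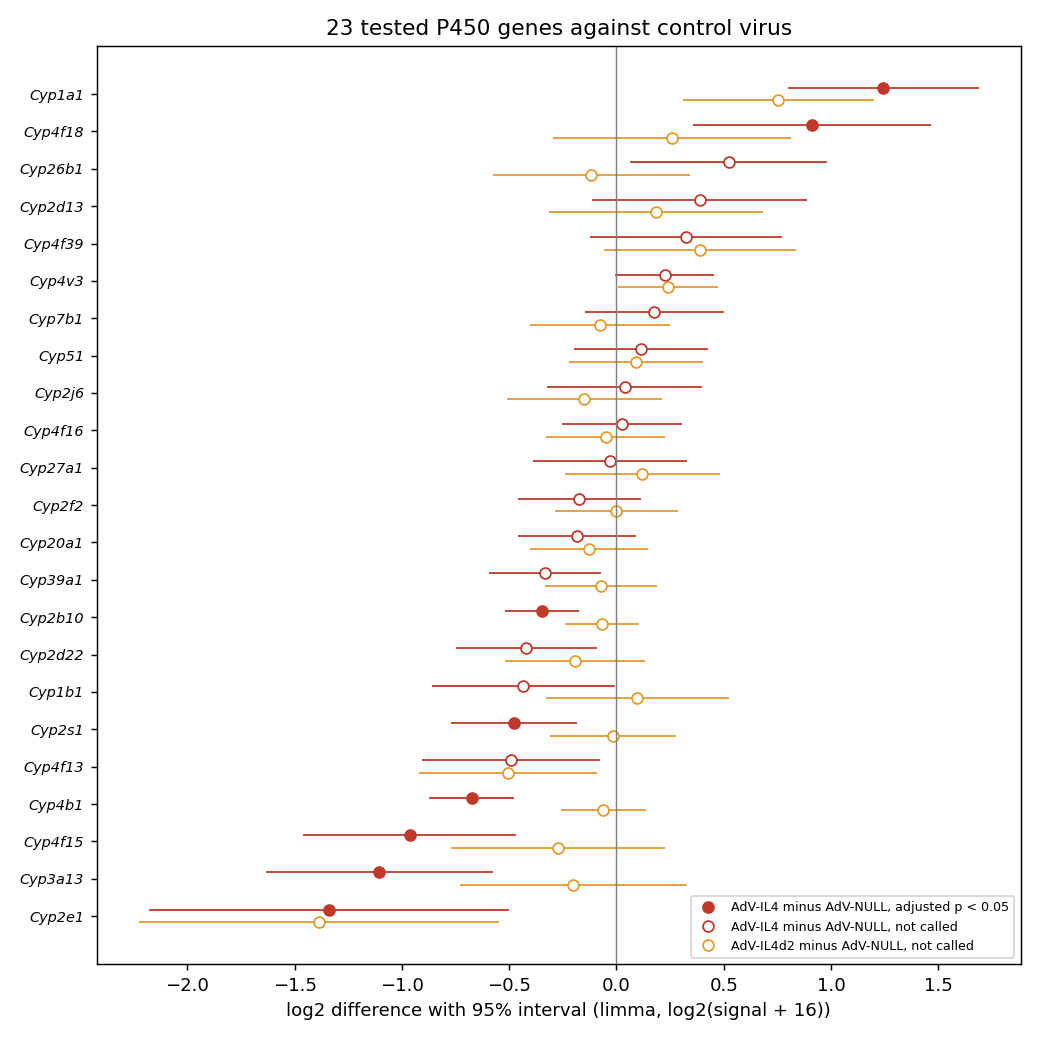
Log2 difference against AdV-NULL mice with its 95% interval (horizontal axis) of each of the 23 tested P450 genes (vertical axis), for AdV-IL4 mice in red and AdV-IL4d2 mice in orange. Filled points passed the limma test, 8 genes for AdV-IL4 and none for AdV-IL4d2. Cyp1a1 is highest and Cyp2e1 lowest for AdV-IL4, at 1.24 and −1.34.

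Cyp1a1, the Ah receptor target that oxidises polycyclic aromatic hydrocarbons, had signals of 1599, 1524 and 1065 in AdV-IL4 mice and 1405, 835 and 789 in AdV-IL4d2 mice, against 624, 547 and 547 in AdV-NULL mice. Every array of both cytokine groups lay above every control array. IL-4 raised it 2.37-fold, a log2 difference of 1.24 ± 0.20 (SE) with a limma adjusted p of 0.00306. The call held when any 1 of the 9 arrays was dropped. With IL-4d2 the log2 difference was 0.75 ± 0.20 and did not pass the test (adjusted p = 0.103, 95% interval 0.31 to 1.20). It passed with arrays scaled to the hybridisation controls (0.85, adjusted p = 0.0276), and was 0.49 without AdV-IL4d2 mouse 1 (adjusted p = 0.243). AdV-IL4 exceeded AdV-IL4d2 by 0.49, which was not called (adjusted p = 0.256), and AdV-IL4d2 mouse 1 overlapped the AdV-IL4 range.

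The start region of Cyp1a1 printed above has its GCGTG 54 bases before the annotated start and its TATAAA 30 bases before it. GCGTG or its complement is found in 32.4% of all 32851 RefSeq promoter windows of this length and in 25.4% of the 59 windows of 52 P450 genes that matched. Only 19 of the tested genes had a window. Besides Cyp1a1, the windows of Cyp1b1, Cyp2b10, Cyp20a1, Cyp4f16, Cyp4f39, Cyp4v3 and Cyp51 hold it among them. Of these genes besides Cyp1a1, Cyp2b10 fell with IL-4 while the others were not called. The STAT6 motif was in 6.95% of all windows and in 3.39% of the P450 windows, none of them of the 19 tested genes with a window.

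Other genes tied to the Ah receptor, chosen after their values were seen, are given beside Cyp1a1. Cyp1b1, the second P450 target of the receptor tested here, had a mean of 252 ± 52.5 in AdV-IL4 mice and 369 ± 51.1 in AdV-IL4d2 mice, against 347 ± 73.9 in AdV-NULL mice (SD, n = 3 each), and its log2 difference with IL-4 was −0.43 (adjusted p = 0.184). Cyp1a2, an enzyme of the liver, was at 52 or below on all 9 arrays and was not tested, and the receptor's repressor Ahrr was under the array median on all 9. The receptor itself, Ahr, had log2 differences of 0.11 with IL-4 and −0.30 with IL-4d2, neither of them called, and was higher with IL-4 than with IL-4d2 by 0.41 (adjusted p = 0.0491), a call lost in 7 of the 9 fits that drop 1 array and a difference of −0.13 when arrays were scaled to the hybridisation controls. The receptor-induced gene Tiparp was not called with IL-4 (0.14, adjusted p = 0.393), and Nqo1, a quinone reductase that the receptor and Nrf2 induce, fell by 0.97 on the log2 scale (adjusted p = 0.00916).

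**Figure D2:**
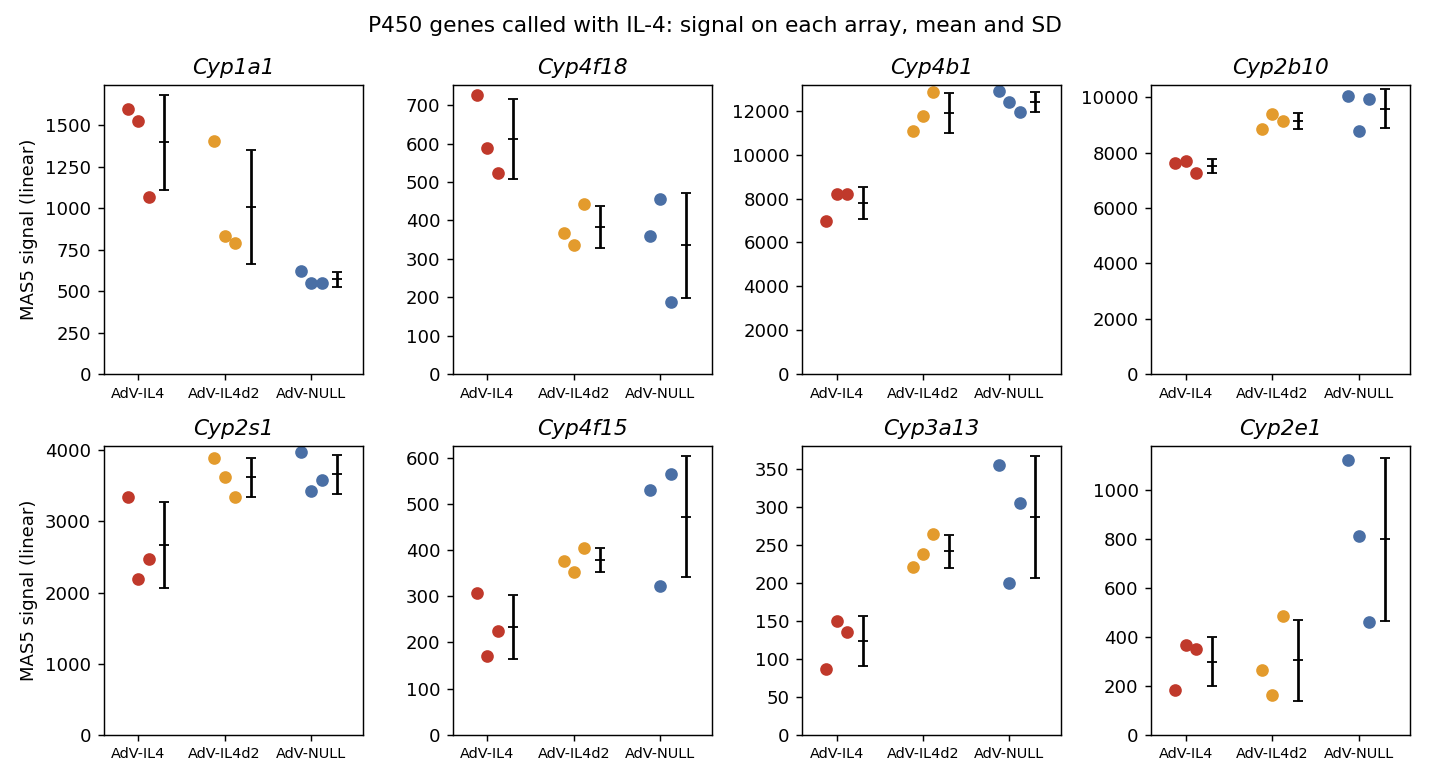
MAS5 signal (vertical axes, linear, from 0) of the 8 called P450 genes on each array, 1 point per mouse, for AdV-IL4, AdV-IL4d2 and AdV-NULL mice from left to right. Black bars give the mean and SD of each group (n = 3). The AdV-IL4 points lie apart from the AdV-NULL points in all 8 panels, and the AdV-IL4d2 points do so for Cyp1a1.

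Cyp4b1, which activates furans such as ipomeanol in the lung, was lower with IL-4. Its signals were 6956, 8224 and 8193 in AdV-IL4 mice and 11089, 11755 and 12861 in AdV-IL4d2 mice, against 12877.5, 12403 and 11949 in AdV-NULL mice. The AdV-IL4 arrays were below all others, and the remaining groups overlapped. It was 1.60-fold lower with IL-4 (−0.67 ± 0.09 on the log2 scale, limma adjusted p = 0.00097), and the call held when any 1 array was dropped. The log2 difference with IL-4d2 was −0.06 (95% interval −0.26 to 0.14, adjusted p = 0.817).

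Cyp2b10, a P450 that the receptor Nr1i3 induces in liver, is read by 3 probe sets, all of them bright. On the brightest, its signals were 7609, 7697 and 7242 in AdV-IL4 mice and 8845, 9399 and 9154 in AdV-IL4d2 mice, against 10031, 8769.8 and 9946 in AdV-NULL mice. The AdV-IL4 arrays lay below all others. This probe set fell by 0.35 ± 0.08 on the log2 scale with IL-4 (limma adjusted p = 0.017), the probe set specific to the gene by 0.41 (adjusted p = 0.0131) and the third, a shared one, by 0.26 (adjusted p = 0.0481). With IL-4d2 the 3 log2 differences lay between −0.07 and −0.00, and none was called. The call on the brightest probe set was lost without AdV-IL4 mouse 3 (−0.32), AdV-NULL mouse 1 (−0.31) or AdV-NULL mouse 3 (−0.32), that on the third in 8 of 9 such fits (range −0.30 to −0.23), and that on the specific one in none. The suffix of the brightest and the third marks probe sets that can read several genes of a family. The other is named gene-specific here by its suffix alone, since its probe sequences were not checked.

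Cyp2s1, a P450 of lining epithelia outside the liver, is the immediate neighbour of Cyp2b10, with 0 protein-coding genes between them in the RefSeq gene order of chromosome 7. Its signals were 3339, 2185 and 2472 in AdV-IL4 mice and 3895, 3621 and 3339.7 in AdV-IL4d2 mice, against 3969, 3430.5 and 3587 in AdV-NULL mice. AdV-IL4 mouse 1 came within 1 unit of the lowest AdV-IL4d2 array. It was 1.39-fold lower with IL-4 (−0.48 ± 0.14 on the log2 scale, limma adjusted p = 0.0426), and this call was lost in 8 of the 9 fits that drop 1 array, all but the one without AdV-IL4 mouse 1, over a range of −0.65 to −0.35. It was −0.29 without both AdV-NULL mouse 1 and AdV-IL4 mouse 2 (adjusted p = 0.289).

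Cyp2f2, the naphthalene-activating enzyme of mouse club cells, lies 14 protein-coding genes beyond Cyp2b10 and was not called. Its signals were 27746, 21224 and 22750.3 in AdV-IL4 mice and 27448, 28590.1 and 24453 in AdV-IL4d2 mice, against 24541, 32493 and 24081 in AdV-NULL mice. All 3 groups overlapped. The log2 difference with IL-4 was −0.17 (95% interval −0.46 to 0.11, adjusted p = 0.446) and with IL-4d2 −0.00 (−0.29 to 0.29, adjusted p = 0.999). Cyp2f2, Cyp2b10, Cyp2s1 and Cyp4b1 thus had log2 differences of −0.17, −0.35, −0.48 and −0.67 with IL-4, all below 0, with calls for the last 3.

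Markers of club cells stood beside these values. Of 9 tested markers, Cldn10, a tight junction protein, and Hp, haptoglobin, fell with IL-4, by 0.92 and 0.76 on the log2 scale, and none rose. Over all tested probe sets 5.08% were called lower with IL-4 and 5.6% higher. The defining secretoglobins Scgb1a1 and Scgb3a2 had log2 differences of 0.34 and −0.23, neither of them called. The summed signal of the list ran between 122993 and 165738 in AdV-IL4 mice and between 153472 and 164778 in AdV-IL4d2 mice, against 130768 to 174571 in AdV-NULL mice. Of 5 ciliated cell markers, 3 fell with IL-4, among them Tppp3 by 0.84 on the log2 scale. Between the forms, Cldn10, Hp, Tppp3 and Dnali1 were called lower with IL-4, where 0.835% of all tested probe sets were. Of these, the calls of Tppp3 and Dnali1 were lost in 3 and 5 of the 9 fits that drop 1 array. In whole-lung RNA fewer cells of a type and less RNA per cell cannot be told apart, and the part of these cells in the P450 values was not tested.

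Cyp3a13, a member of the drug-oxidising Cyp3a subfamily, had signals of 87.0, 149.7 and 135 in AdV-IL4 mice and 221, 238 and 265 in AdV-IL4d2 mice, against 356, 199 and 305 in AdV-NULL mice. The AdV-IL4 arrays lay below all others, and none of them was above its own array median, so the probe set passed the filter through the other groups. It was 2.15-fold lower with IL-4 (−1.11 ± 0.24 on the log2 scale, limma adjusted p = 0.014). The call was lost without AdV-NULL mouse 1 (−0.94) or AdV-NULL mouse 3 (−1.04). The differences of −0.20 with IL-4d2 (adjusted p = 0.766) and −0.90 between IL-4 and IL-4d2 (adjusted p = 0.0911) were not called. None of the other 4 Cyp3a probe sets was bright enough to test.

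Cyp2e1, the ethanol-oxidising P450 of liver, had signals of 183, 366 and 349.7 in AdV-IL4 mice and 264, 163 and 486 in AdV-IL4d2 mice, against 1126, 813 and 460.4 in AdV-NULL mice. The AdV-IL4 arrays lay below all control arrays, and AdV-IL4d2 mouse 3 overlapped them. It was 2.53-fold lower with IL-4 (−1.34 ± 0.39 on the log2 scale, limma adjusted p = 0.0451), while the difference of −1.39 ± 0.39 with IL-4d2 was of like size and was not called (adjusted p = 0.111). The difference between the cytokine forms was 0.05 (95% interval −0.79 to 0.89). The IL-4 call was lost in 6 of the 9 fits that drop 1 array, without any 1 AdV-IL4 mouse (−1.04, −1.51 and −1.48), AdV-IL4d2 mouse 1 (−1.34), AdV-NULL mouse 1 (−1.05) or AdV-NULL mouse 2 (−1.28).

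Fat and muscle markers were lower with IL-4, as Cyp2e1 was. The 3 tested fat markers, Adipoq, Cidec and Retn, fell with IL-4, and their summed signal was 352, 221 and 576 in AdV-IL4 mice and 469, 379 and 1265 in AdV-IL4d2 mice, against 2781, 1489 and 1213 in AdV-NULL mice. AdV-NULL mouse 1 was highest in Cyp2e1, in fat and in muscle markers alike. Within AdV-NULL and within AdV-IL4d2 mice the fat sum ranked the arrays as Cyp2e1 did. Within AdV-IL4 mice it did not, since AdV-IL4 mouse 2 was lowest in both marker sums and, at 366, highest in Cyp2e1. The muscle sums were 4004, 1204 and 4299 in AdV-IL4 mice and 11573, 3547 and 10519 in AdV-IL4d2 mice. They ranked the arrays as Cyp2e1 did within AdV-NULL mice only. All 3 fat and all 6 muscle markers were called lower with IL-4, where 5.08% of all tested probe sets were. The call of the muscle marker Mylpf was lost in 8 of the 9 fits that drop 1 array, and that of Acta1 in 4. That of the fat marker Adipoq was lost without AdV-NULL mouse 1. None of the 4 liver markers on the array was bright enough to test, and their sum ran between 188 and 537 in AdV-IL4 mice and between 94.5 and 235 in AdV-IL4d2 mice, against 195 to 329.8 in AdV-NULL mice. The part of fat or muscle in the Cyp2e1 values was not tested.

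**Figure D3:**
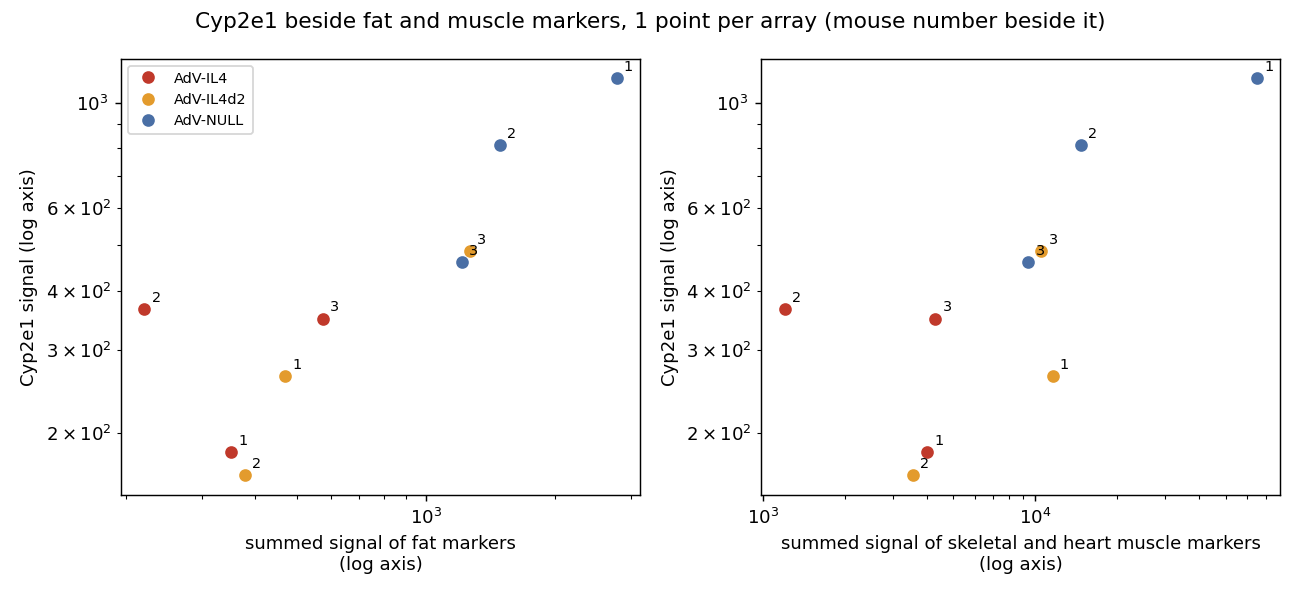
Cyp2e1 signal (vertical axes, log scale) against the summed signal of 3 fat markers on the left and 6 skeletal and heart muscle markers on the right (horizontal axes, log scale), 1 point per array with its mouse number. AdV-NULL mouse 1 is at the top right of both panels, with 1126 for Cyp2e1. Within AdV-NULL and within AdV-IL4d2 mice the fat sum ranks the arrays as Cyp2e1 does. AdV-IL4 mouse 2 has the lowest marker sums, 221 and 1204, and the highest Cyp2e1 of its group, 366.

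The Cyp4f subfamily, whose enzymes hydroxylate fatty acids and leukotrienes at the end of their chain, moved both ways. Cyp4f18, which inactivates leukotriene B4 in mouse neutrophils, had signals of 726, 588 and 523 in AdV-IL4 mice and 367, 337 and 442 in AdV-IL4d2 mice, against 360.1, 457 and 187 in AdV-NULL mice. The AdV-IL4 arrays were above all others. IL-4 raised it 1.88-fold (0.91 ± 0.25 on the log2 scale, limma adjusted p = 0.0399). This call was lost in 8 of the 9 fits that drop 1 array, all but the one without AdV-NULL mouse 2, with values between 0.56 (without AdV-NULL mouse 3) and 1.02 (without AdV-IL4 mouse 3). It was also lost under scaling to the hybridisation controls (0.48, adjusted p = 0.1).

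Of 3 tested neutrophil markers the calgranulins S100a8 and S100a9 fell with IL-4, with log2 differences of −1.97 and −2.32, and the remaining one was not called. The list's summed signal was 544 to 1571 in AdV-IL4 mice and 3174 to 7861 in AdV-IL4d2 mice, against 3323 to 6162 in AdV-NULL mice, and Cxcr2 was below the array median on all 9 arrays. Of 5 macrophage markers 4 rose with IL-4, among them Itgax by 1.59 on the log2 scale, and Marco fell by 2.55. The macrophage sum was 6579 to 8057 in AdV-IL4 mice and 3335 to 4479.8 in AdV-IL4d2 mice, against 3293 to 4787 in AdV-NULL mice. Of 4 tested B cell markers 3 rose with IL-4 and 1 with IL-4d2. These marker counts stand beside 5.6% of all tested probe sets called higher and 5.08% lower with IL-4, and 0.928% higher with IL-4d2. Of the remaining lists, 1 of 5 alveolar type 2 markers rose, 2 of 6 endothelial markers rose and 2 fell, and 4 of 6 fibroblast and smooth muscle markers fell with IL-4. The part of these cells in the Cyp4f18 values was not tested.

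Cyp4f15 had signals of 308, 170.0 and 224 in AdV-IL4 mice and 376, 353 and 406 in AdV-IL4d2 mice, against 531, 322 and 565 in AdV-NULL mice. The AdV-IL4 arrays were below all others. It was 1.95-fold lower with IL-4 (−0.96 ± 0.23 on the log2 scale, limma adjusted p = 0.02), a call lost without AdV-IL4 mouse 2 (−0.77), AdV-IL4 mouse 3 (−0.95), AdV-NULL mouse 1 (−0.86) or AdV-NULL mouse 3 (−0.82). Cyp4f13, a nearby gene on chromosome 17, had log2 differences of −0.49 with IL-4 and −0.50 with IL-4d2, and neither was called (adjusted p = 0.125 and 0.246), although both groups lay below the 3 control arrays. Cyp4f16, between Cyp4f39 and Cyp4f15 on the same chromosome, differed by 0.03 with IL-4 (95% interval −0.25 to 0.31, adjusted p = 0.922), and Cyp4f39, which acts on the very long fatty acids of skin ceramides, by 0.32 (adjusted p = 0.349).

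In the start regions printed above, Cyp4f15 and Cyp4f18 share a run of 14 bases, tcctgagagaaggt, that begins at base 15 after the start of Cyp4f15 and at base 37 after that of Cyp4f18. The Cyp4f18 window ends with this run, so the shared stretch may be longer. How often windows share such a run was not tested. Both also hold ATTGG, 78 bases before the start of Cyp4f15 and 48 and 113 bases before that of Cyp4f18. This motif was in 37.4% of all windows and in 50.8% of the P450 windows on either strand. TATAAA was in neither of them, in 13.6% of all windows and in 35.6% of the P450 windows. A match of letters does not show that a factor binds there.

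The remaining fatty acid enzymes showed no call. Cyp4v3 had a mean of 1189 ± 153 in AdV-IL4 mice and 1196 ± 78.3 in AdV-IL4d2 mice, against 1010.0 ± 44.7 in AdV-NULL mice (SD, n = 3 each). Every array of both cytokine groups lay above the control arrays, by log2 differences of 0.22 and 0.24 (adjusted p = 0.207 and 0.33), and its second probe set differed by −0.03 and 0.06. Cyp2j6, of a subfamily that forms epoxides of arachidonic acid, differed by 0.04 with IL-4 and −0.15 with IL-4d2, and by −0.07 and 0.23 on its second, dimmer probe set. Among the drug-oxidising Cyp2d genes, Cyp2d22 had a log2 difference of −0.42 with IL-4 on its brighter probe set (adjusted p = 0.0991) and Cyp2d13 one of 0.39 (adjusted p = 0.314).

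P450 genes of sterol and retinoid pathways were not called in any comparison. Cyp51, the lanosterol demethylase of cholesterol synthesis, had signals of 827, 744 and 894 in AdV-IL4 mice and 821, 772 and 826 in AdV-IL4d2 mice, against 680.04, 974 and 649 in AdV-NULL mice. On this probe set all groups overlapped, with log2 differences of 0.12 with IL-4 and 0.09 with IL-4d2 (adjusted p = 0.661 and 0.829). Its second tested probe set gave 0.35 with IL-4 (adjusted p = 0.186). There the AdV-IL4 arrays of Cyp51 lay above the AdV-IL4d2 arrays, by 0.37, which was not called (adjusted p = 0.27). Cyp7b1, the oxysterol hydroxylase that makes ligands of the lymphocyte guidance receptor Gpr183, had signals of 438, 389 and 348 in AdV-IL4 mice and 362, 309 and 306 in AdV-IL4d2 mice, against 289, 368 and 380.1 in AdV-NULL mice (differences 0.18 and −0.08, adjusted p = 0.496 and 0.868). Cyp27a1, a mitochondrial sterol hydroxylase of macrophages and liver, had signals of 424, 611 and 551 in AdV-IL4 mice and 577, 555 and 617 in AdV-IL4d2 mice, against 681, 456 and 489.5 in AdV-NULL mice (−0.03 and 0.12, adjusted p = 0.93 and 0.798). On these probe sets the 3 groups of both genes overlapped. The second tested probe set of Cyp7b1 read 304, 274 and 289 in AdV-IL4 mice and 223, 194 and 242 in AdV-IL4d2 mice, against 177, 305 and 254 in AdV-NULL mice. There the AdV-IL4 arrays lay above the AdV-IL4d2 arrays, and none of its differences was called (0.37 between the forms, adjusted p = 0.363).

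Cyp39a1, another oxysterol hydroxylase, came nearest to a call in this group. Its signals were 607, 683 and 603 in AdV-IL4 mice and 729, 709 and 839 in AdV-IL4d2 mice, against 873, 687 and 845 in AdV-NULL mice, and the AdV-IL4 arrays lay below all others. The log2 difference with IL-4 was −0.33 (95% interval −0.59 to −0.07, adjusted p = 0.101) and with IL-4d2 −0.07 (adjusted p = 0.838). Without AdV-NULL mouse 2 it passed the test with IL-4 at −0.44 (adjusted p = 0.0451).

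Cyp26b1, which degrades retinoic acid, had signals of 468, 642 and 968 in AdV-IL4 mice and 384, 479.6 and 402 in AdV-IL4d2 mice, against 461, 509 and 405 in AdV-NULL mice. AdV-IL4 mouse 1 lay within the control range and the other AdV-IL4 mice above it. The log2 difference with IL-4 was 0.52 (95% interval 0.06 to 0.98, adjusted p = 0.139), and without AdV-IL4 mouse 1 it passed the test at 0.77 (adjusted p = 0.0255), while without AdV-IL4 mouse 3 it was 0.26 (adjusted p = 0.397). With IL-4d2 it was −0.12 (adjusted p = 0.854). Cyp20a1, a P450 with no settled substrate, had signals of 1204, 1634 and 1243 in AdV-IL4 mice and 1322, 1463 and 1425 in AdV-IL4d2 mice, against 1481, 1746 and 1393 in AdV-NULL mice. It differed by −0.18 with IL-4 and −0.13 with IL-4d2 (adjusted p = 0.39 and 0.708).

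The untested members cover whole subfamilies best known from liver, kidney and steroid-making glands. None of the 11 Cyp2c probe sets was bright enough to test (signals of 2.80 to 188), nor any of the 4 Cyp4a probe sets (1.16 to 248), nor the 2 of Cyp7a1, the rate-limiting enzyme of bile acid synthesis. The same holds for Cyp11a1, Cyp11b1, Cyp11b2, Cyp17a1 and Cyp21a1 of steroid synthesis, with signals up to 146 over all their probe sets, and for Cyp24a1, Cyp27b1 and Cyp2r1 of vitamin D metabolism, with signals up to 92.6. Over all 68 untested probe sets the median signal was 41.3 on AdV-IL4 arrays and 40.4 on AdV-IL4d2 arrays, against 42.7 on AdV-NULL arrays. With no filter limma called 0 of the 68 in any of the 3 comparisons, and at an unadjusted p under 0.05 the counts were 3 with IL-4 (4.41%, against 17.3% of all probe sets), 4 with IL-4d2 (5.88%, against 10.3%) and 1 between the forms (1.47%, against 11.9%). Detection calls were not used here, so a dim probe set is not shown to be without transcript.

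The AdV-IL4 arrays were also set directly against the AdV-IL4d2 arrays. limma called 2 of the 30 P450 probe sets, both lower with IL-4, where 1.75% of all tested probe sets were called and 0.835% were lower. They were Cyp4b1, with a log2 difference of −0.61 ± 0.09 (adjusted p = 0.0061), and the gene-specific probe set of Cyp2b10, with one of −0.41 ± 0.09 (adjusted p = 0.0409). The Cyp4b1 call held in each of the 9 fits that drop 1 array (−0.66 to −0.53), while that of Cyp2b10 was lost in 7 of them (values between −0.47 and −0.32 over all 9) and was not made on the other 2 probe sets (−0.28 and −0.26, adjusted p = 0.104 and 0.116). For 13 of the 30 the signals were fully apart, against 22% of all, and 12 had an unadjusted p under 0.05, against 16.4% of all. Cyp2s1, Cyp3a13, Cyp4f15 and Cyp4f18 differed between the forms by −0.46, −0.90, −0.69 and 0.65 without passing the test (adjusted p = 0.114, 0.0911, 0.156 and 0.225).

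Genes that serve P450 enzymes or share their pathways were counted by list. Each count with IL-4 stands beside the 10.7% of all tested probe sets called. Of 7 tested genes in a list of electron donors, their partners and the quinone reductase Nqo1, 3 fell. Cyb5a, cytochrome b5, had a mean of 9226 ± 339 in AdV-IL4 mice and 13688 ± 2399 in AdV-IL4d2 mice, against 14925 ± 1114 in AdV-NULL mice (log2 difference −0.69 with IL-4, adjusted p = 0.00306). Pgrmc1, a heme-binding P450 partner, and Nqo1, given above, were the others. Nqo1 is not an electron donor of P450 enzymes, so its fall does not bear on them. The median log2 difference of this list, Nqo1 included, was −0.30, against −0.00 over all tested probe sets. The reductase Por was not analysed here.

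Of 11 tested genes of heme synthesis and breakdown 2 fell with IL-4 and 1 rose (median −0.04). Hmox1, the heme oxygenase that breaks heme down, averaged 702 ± 71.1 in AdV-IL4 mice and 511 ± 51.8 in AdV-IL4d2 mice, against 435 ± 38.2 in AdV-NULL mice, a rise of 0.67 on the log2 scale with IL-4 (adjusted p = 0.00589). Alas1, the rate-limiting synthase, fell by 0.38 (adjusted p = 0.0324) and Alad, the next enzyme, by 0.46 (adjusted p = 0.0464, lost in 7 of the 9 fits that drop 1 array). Hmox1 kept its call in each of those fits and lost it under scaling to the hybridisation controls (0.23, adjusted p = 0.383). Such fits are not given here for the IL-4 call of Alas1.

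Of 7 tested retinoid genes 2 fell with IL-4 (median −0.34). Lrat, which stores retinol as esters, averaged 949 ± 163 in AdV-IL4 mice and 1485 ± 137 in AdV-IL4d2 mice, against 2063 ± 82.8 in AdV-NULL mice (log2 difference −1.12, adjusted p = 0.000238), and Rbp4, the retinol carrier of blood, fell by 0.69 (adjusted p = 0.00171). Of 16 sterol synthesis genes 2, Hsd17b7 and Sqle, fell, a share near those 10.7%, by 0.50 and 0.42 on the log2 scale (median −0.20), calls lost in 7 and 4 of the 9 fits that drop 1 array. Of 5 flavin monooxygenases and epoxide hydrolases, Ephx1, which hydrolyses the epoxides that P450 enzymes form, fell by 0.57 (adjusted p = 0.00364) and Fmo1 by 0.37 (adjusted p = 0.0173; −0.33 and not called without AdV-NULL mouse 3), with a median of −0.40. Of 10 tested receptors and regulators of P450 genes limma called 0 with IL-4 (median −0.06; 0 at an unadjusted p under 0.05), and 6 others, including the xenobiotic receptors Nr1i2 and Nr1i3, were too dim to test. With IL-4d2 limma called 0 of the 56 tested genes of these 6 lists, 9 of which had an unadjusted p under 0.05, where 1.32% and 14.4% of all tested probe sets did so. Between the forms, Cyb5a (−0.55), Alas1 (−0.44), Lrat (−0.65), Rbp4 (−0.51) and Ephx1 (−0.48) were called lower with IL-4, and Ahr, given above, higher. The lower calls were lost in 5, 7, 2, 5 and 5 of the 9 fits that drop 1 array, in that order. At an unadjusted p under 0.05 the count between the forms was 22 of 56, against 16.4% of all tested probe sets, of which 1.75% were called.

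**Figure D4:**
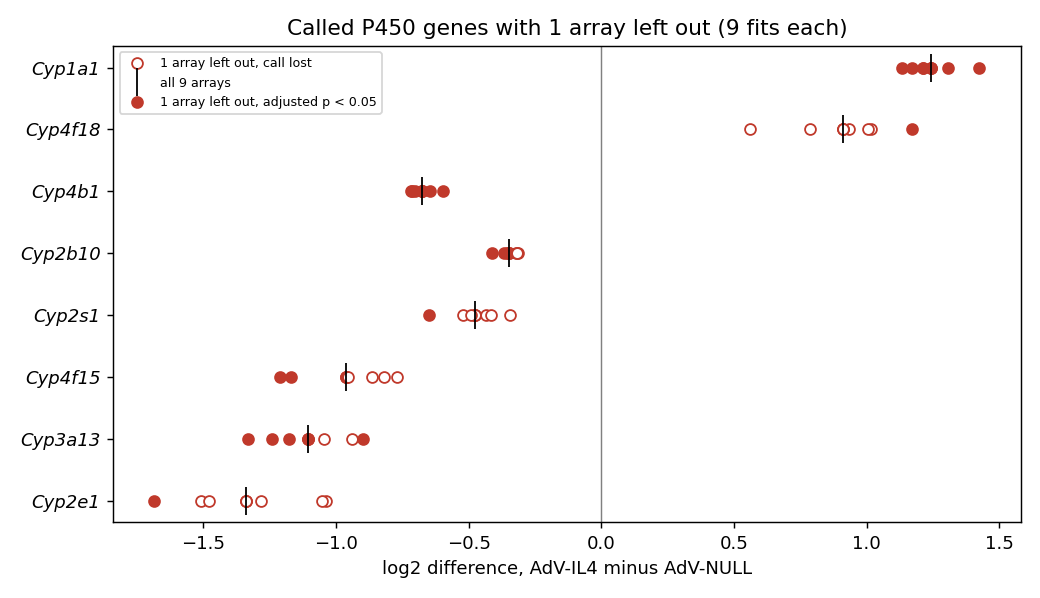
Log2 difference between AdV-IL4 and AdV-NULL mice (horizontal axis) of the 8 called P450 genes in 9 fits that each leave out 1 array. Filled points kept an adjusted p under 0.05, open points lost it, and the vertical tick is the value over all 9 arrays. Cyp1a1 and Cyp4b1 kept their call in each fit, and Cyp2s1 and Cyp4f18 lost it in 8 of 9.

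The direction of all 8 genes was the same in each of these fits, and 2 of the 8 called genes, Cyp1a1 and Cyp4b1, kept their call throughout. Without both AdV-NULL mouse 1 and AdV-IL4 mouse 2, limma called 3 of the 30 P450 probe sets with IL-4: Cyp1a1 at 1.23 (adjusted p = 0.0231), Cyp4b1 at −0.69 (adjusted p = 0.00925) and the gene-specific probe set of Cyp2b10 at −0.45 (adjusted p = 0.0436). Scaling to the hybridisation controls shifted the median over all probe sets by −0.43 with IL-4 and gave 1 higher and 15 lower P450 probe sets, in place of 2 and 8. It called 2 P450 probe sets with IL-4d2 and 15 between the forms.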

How the data were processed

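Total RNA of whole mouse lung was primed with oligo-dT and labelled for Affymetrix 3' arrays, per the labels' protocols. The authors deposited 1 linear signal intensity for every probe set on each array. Expression Console 2.0, MAS5 and GCOS are the tools listed, with no roles, per the submitters' processing notes. The trimmed mean was 500.002 on all 9 arrays, so the arrays had been scaled to 1 level, which hides any change common to most genes. The number of arrays limits the precision.

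Signals were transformed to log2(signal + 16), which understates changes of dim probe sets, and 64 control probe sets were left out. All 9 arrays entered 1 model without covariates (lmFit and eBayes with trend, limma 3.58.1, R 4.3.3, 6 residual degrees of freedom). Tests were two-sided and adjusted by Benjamini-Hochberg over 23824 probe sets. The method was tested on simulated data. The brightest tested probe set stood for its gene. Gene symbols came from the platform annotation, and all 73 matched a RefSeq record by Entrez identifier.

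Values by array were given for each P450 gene called in a comparison and for the brightest tested gene of each family without a call. From each partner list the 2 called genes with the largest change were named. Other genes named were chosen after their values were seen. The members, the 6 lists of partner genes and the 11 marker lists were chosen with earlier results of these data known. The deviations of same-numbered mice correlated at −0.07 to 0.12 over 9 pairs, against −0.13 to 0.13 over 18 other pairs. Between AdV-IL4 and AdV-IL4d2 mice the same-numbered pairs were at 0.12, 0.10 and 0.07, and the others between −0.09 and −0.01. The labels name no pairing, so none was used in the main model. These values do not settle whether same-numbered mice shared a day or batch.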

Additional observations from a re-analysis of the deposited data

Results flagged for a closer look

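The effects of the cytokine forms differed, by the limma contrast of AdV-IL4 against AdV-IL4d2 mice, for 2 P450 probe sets. Cyp4b1 was lower in AdV-IL4 mice by a log2 difference of −0.61, with −0.67 for IL-4 and −0.06 for IL-4d2 against AdV-NULL mice, and the direct difference kept its call in each of the 9 fits that drop 1 array. The gene-specific probe set of Cyp2b10 was lower by −0.41, with −0.41 and −0.00 against AdV-NULL mice. Its direct call was lost in 7 of 9 such fits, without AdV-IL4 mouse 1 (−0.32) or 3 (−0.44), AdV-IL4d2 mouse 1 (−0.45), 2 (−0.39) or 3 (−0.39), or AdV-NULL mouse 1 or 3 (−0.41 each). Groups of 3 mice were too small for the test of single outlying arrays.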

How the results depend on the processing

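For IL-4 against control virus the 10 called P450 probe sets became 6 with no filter, 5 with no intensity trend, 16 with scaling to the hybridisation controls and 3 without both AdV-NULL mouse 1 and AdV-IL4 mouse 2, and 3 to 8 with 1 array left out. The count over all probe sets was 2546, with 7451 under that scaling, 1068 without both arrays and 1313 to 2210 with 1 array left out. For IL-4d2 the P450 count of 0 became 2 under that scaling and 1 with the replicate block, and stayed 0 in each fit with 1 array left out. Its count over all probe sets was 314, with 195 without the trend, 200 without both arrays and 156 to 417 with 1 left out. Between the forms the P450 count of 2 became 15 under that scaling, 1 with no filter, 1 without the trend, 1 with only the 2 groups compared, 1 without both arrays and 1 to 3 with 1 left out. The count over all probe sets was 416, with 11163 under that scaling, 244 with no filter, 165 without the trend, 237 without both arrays and 110 to 446 with 1 left out. Pseudocounts of 1 and 64, quantile normalization and the stricter filter moved none of these counts by over 1.5 times. Whether the mouse numbers pair the samples is not given by the labels. With the number as a replicate block limma called 8 P450 probe sets with IL-4 and 2 between the forms. The block lost the IL-4 calls of Cyp2e1 (adjusted p = 0.0674), the third probe set of Cyp2b10 (0.0583), Alad (0.0596), Hsd17b7 (0.0557) and the ciliated marker Tekt4 (0.0574), the IL-4d2 call of Ms4a1 (0.0507) and the calls between the forms of Ephx1 (0.0530) and Dnali1 (0.0513), and made the IL-4d2 call of Cyp1a1 (0.0384).

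Some log2 differences changed sign. Under scaling to the hybridisation controls these were, with IL-4, Cyp51 (−0.32), Cyp7b1 (−0.25) and the alveolar type 2 marker Slc34a2 (−0.055), with IL-4d2, Cyp2b10 (0.024), Cyp2s1 (0.073), Cyp39a1 (0.015), Cyp4b1 (0.028) and Cyp7b1 (0.011), and between the forms, Ahr (−0.13), Cyp1a1 (−0.043), Cyp2e1 (−0.46), Cyp51 (−0.50) and Cyp7b1 (−0.26). That scaling lowers the AdV-IL4 values as a whole, and the IL-4 calls of Hmox1 (0.23), Vwf (0.056), Cd79a (0.73) and Ms4a1 (0.34) were lost under it. Without both arrays Cyp27a1 with IL-4 was 0.031, Cyp2s1 with IL-4d2 0.042 and Cyp2e1 between the forms −0.12. With 1 array left out, the range was −0.14 to 0.14 for Cyp27a1 with IL-4, −0.072 to 0.042 for Cyp2s1, −0.092 to 0.52 for Cyp4f18 and −0.015 to 0.27 for Cyp51 with IL-4d2, and −0.19 to 0.024 for Cyp20a1, −0.31 to 0.43 for Cyp2e1 and −0.038 to 0.092 for Cyp51 between the forms. The cause was not tested. Of these, Ahr and Slc34a2 had been called.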

Other observations

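A probe set annotated to both Cyp2a5 and Cyp2a4, and so outside the members, read the subfamily that oxidises coumarin and nicotine. Its signals were 4976, 534 and 2316 in AdV-IL4 mice and 2671, 2284 and 5438 in AdV-IL4d2 mice, against 9697, 3837 and 3790.3 in AdV-NULL mice. The AdV-IL4 and AdV-NULL signals overlapped, and the log2 difference with IL-4 was −1.49 ± 0.64 (limma adjusted p = 0.162). AdV-NULL mouse 1 was highest and AdV-IL4 mouse 2 lowest in this probe set, as they were in the summed muscle markers. Other arrays did not keep that order, since AdV-IL4 mouse 1 had 4976 with a muscle sum of 4004. AdV-IL4d2 mouse 1 had 2671 with a muscle sum of 11573. A link to muscle was not tested.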
